A study of Homo sapiens with 8 samples.

Results

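Ribosomal protein pseudogenes are copies of ribosomal protein mRNAs that were reverse transcribed and inserted back into the genome, so they lack the introns of the gene they came from. Their RNA was compared here between chromatin and nucleoplasm of HAP1 nuclei, and 462 such loci could be followed. They were taken from GENCODE release 44 as processed pseudogenes with a symbol of RPL or RPS, a number, an optional letter, P and a number. Of 1430 loci with such a name, 1389 had a gene in the short-read table, 945 of these were above 0 in a library, and 462 reached a normalised read count of at least 10 in at least 3 of 6 libraries. These 462 members descend from 64 parent genes and made up 462 of the 26489 genes tested.

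HAP1 is a near-haploid human line derived from the leukaemia line KBM-7. Nuclei of untreated HAP1 cells were extracted with urea and detergent. The pellet was taken as chromatin and the supernatant as nucleoplasm, and ERCC standard RNA was added to each before RNA isolation and ribosomal RNA depletion. Both fractions of 3 independent cultures were sequenced as strand-specific 50-base single-end reads (n = 3 per fraction), and chromatin RNA, tailed with poly(A) by an enzyme, was also sequenced as long direct cDNA reads (n = 2), with no long reads from nucleoplasm.

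A cell makes most of its ribosomal proteins from a single intron-containing gene each, and these genes are among the most strongly expressed. Processed pseudogenes of such genes are the most numerous family of pseudogenes in the human genome. A copy that landed inside an intron of another gene, on the same strand, is transcribed as a part of the host's precursor RNA and removed with the intron. A copy on the opposite strand of its host, or outside any gene, needs transcription of its own to give RNA of its sense strand. Introns and unfinished transcripts stay bound to chromatin, whereas finished mRNA leaves it.

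The copies kept different amounts of the sequence of their parents, and 3 members with their parents are shown to make this visible. RPS7P15 had the lowest and RPS12P16 the highest fold change between fractions of all members. RPL21P28, chosen after its values were seen, is a copy nearly identical to its parent. Each line gives 120 coding bases of hg38 on the sense strand, and capitals mark the bases at which copy and parent differ. The parent lines are spliced exons, so their coordinates span introns.
RPS7P15, chr4:4507259-4507378, plus strand: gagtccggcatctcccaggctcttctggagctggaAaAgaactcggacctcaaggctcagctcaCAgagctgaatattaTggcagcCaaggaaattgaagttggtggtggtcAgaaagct
RPS7, chr2:3575667-3576516, plus strand: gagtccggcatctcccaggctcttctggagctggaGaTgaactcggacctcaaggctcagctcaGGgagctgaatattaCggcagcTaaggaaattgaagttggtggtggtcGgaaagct
RPS12P16, chr10:34675921-34676040, minus strand: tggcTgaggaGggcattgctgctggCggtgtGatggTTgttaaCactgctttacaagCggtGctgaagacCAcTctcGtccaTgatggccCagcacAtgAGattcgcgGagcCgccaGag
RPS12, chr6:132814770-132815078, plus strand: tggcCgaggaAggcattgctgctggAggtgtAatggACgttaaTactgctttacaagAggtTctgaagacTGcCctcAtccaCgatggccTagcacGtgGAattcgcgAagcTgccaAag
RPL21P28, chr1:212051887-212052006, minus strand: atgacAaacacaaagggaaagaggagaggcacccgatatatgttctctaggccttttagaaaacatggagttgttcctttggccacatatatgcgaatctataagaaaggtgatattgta
RPL21, chr13:27253777-27254272, plus strand: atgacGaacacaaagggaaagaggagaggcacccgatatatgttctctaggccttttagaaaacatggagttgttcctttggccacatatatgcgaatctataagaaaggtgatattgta

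In these stretches RPS12P16 differed from RPS12 at 21 of 120 bases, RPS7P15 from RPS7 at 7 and RPL21P28 from RPL21 at 1. The longest run that a member shared with its parent transcript was 27 bases in RPS12P16, 49 in RPS7P15 and 189 in RPL21P28. A read was 50 bases long, so a read of RPL21 could match RPL21P28 without a mismatch, while none of the other pairs shared a whole read. How the authors' counting placed reads that fit several places is not given in the sources used here, so the values of near-identical copies are uncertain.

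The short-read libraries held 38816272 to 43714811 gene reads in chromatin and 75680880 to 79477655 in nucleoplasm, recovered from the deposited values. MALAT1 and PVT1, nuclear long noncoding RNAs, were higher in chromatin (log2 fold change 3.09 and 3.11), and the mRNAs of GAPDH and B2M were higher in nucleoplasm (-2.35 and -2.11). The 9 mitochondrially encoded mRNAs tested, which come from outside the nucleus, had a median of -1.45, and 1 of them passed the call in nucleoplasm. Of 10 blood lineage markers 3 passed the filter: TAL1 held 2396 to 3255 counts, MYB 865 to 1052 and LMO2 10.98 to 35.5 over the 6 libraries. PTPRC, SPI1 and GATA1, which define white cells, myeloid cells and red cell precursors, were at 0 in all 6 libraries. Of 4 epithelial markers EPCAM, KRT8 and KRT18 passed the filter. The cultures are those of a single line, p-values rest on the spread between 3 libraries per fraction, and in bulk libraries a change in the number of RNA molecules per cell and in the number of cells holding them cannot be told apart.

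Most members were nucleoplasmic. A gene was called in a fraction when its difference exceeded 4-fold at an adjusted p under 0.05 (limma on log2 of the normalised read count plus 1, adjusted over all genes tested). By this rule 333 of 462 members were called in nucleoplasm, where 8.6% of all genes tested were, and 55 were called in chromatin, where 21.4% of all genes tested were. The members' median log2 fold change, chromatin over nucleoplasm, was -2.61, against -0.01 over all genes tested. Of 319 copies of large-subunit genes 233 were called in nucleoplasm and 35 in chromatin, and of 143 copies of small-subunit genes 100 and 20. With libraries set to equal ERCC totals in place of the authors' size factors, the median of all genes tested moved by -1.31, and the calls over all genes went from 5671 in chromatin and 2277 in nucleoplasm to 3182 and 9107. Members called were then 35 in chromatin and 380 in nucleoplasm. The libraries of the fractions did not overlap in 450 members, and they did not overlap in 90.5% of all genes tested.

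The filter itself favours genes that differ. Of the 462 members, 53 reached the minimum of 10 through chromatin libraries alone and 66 through nucleoplasm libraries alone. Of the 55 members called in chromatin, 49 were among the first, and of the 333 called in nucleoplasm, 60 were among the second. The 306 members at 10 or more in every library had a median of -2.73, with 248 called in nucleoplasm and 2 in chromatin. Members just inside the filter were RPL9P28, RPL23AP83 and RPL21P95, which reached the minimum of 10 with 10.1, 10.3 and 10.5 normalised counts in the library that decided it, and just outside were RPS3AP14, RPL13AP23 and RPL36AP24, at 9.88, 9.65 and 9.61.

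Members were grouped by the gene around them. Of the members, 145 lay inside a protein-coding or long noncoding RNA (lncRNA) gene of the same strand, 121 inside such a gene of the opposite strand, and 196 inside neither (3 of these overlapped a gene in part). All 145 same-strand members lay between the exons of their hosts, and 5 of the 121 opposite-strand members touched a host exon. Same-strand members split into 46 called in chromatin, 61 called in nucleoplasm and 38 in neither. Opposite-strand members gave 1 call in chromatin and 113 in nucleoplasm, and members without a host gave 8 and 159. Of the 46 same-strand members called in chromatin, 41 had passed the filter through chromatin libraries alone, so these counts are a description. Among members at 10 or more in every library, 1 of 78 same-strand members was called in chromatin and 49 in nucleoplasm (median log2 fold change -2.53), 0 and 84 of 91 opposite-strand members (-2.86), and 1 and 115 of 137 members without a host (-2.73).

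**Figure D1:**
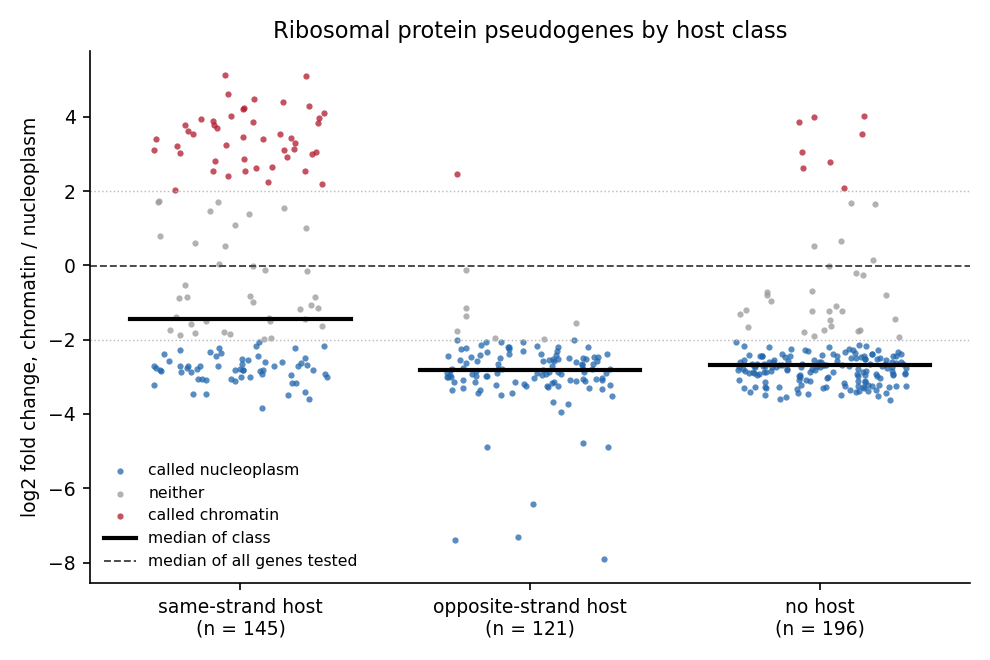
Log2 fold change of each of 462 members (points) by host class, coloured by call, with the median of each class (black bar), the median of all genes tested (dashed line) and the 4-fold limits (dotted lines). Same-strand members form an upper and a lower cloud around an emptier middle that holds their median of -1.43, opposite-strand and hostless members lie mostly near -2.80 and -2.67, and the 7 points below -4 are all opposite-strand at the authors' size factors.

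The same-strand median of -1.43 lay in the gap between 2 clouds of points. The 46 same-strand members called in chromatin had a median log2 fold change of 3.40 and the 61 called in nucleoplasm one of -2.79. Calls differed by the type of host. In protein-coding hosts, 43 of 102 members were called in chromatin and 36 in nucleoplasm (median 0.80). In lncRNA hosts, 3 of 43 were called in chromatin and 25 in nucleoplasm (median -2.43). Host type went with identity to the parent. At 90% identity or more, 0 of 31 members in lncRNA hosts (median -2.71) and 3 of 52 in protein-coding hosts (median -2.56) were called in chromatin. Under 90%, it was 3 of 12 (median -0.85) and 39 of 49 (median 3.14). Of the 46 chromatin calls, 41 had passed the filter through chromatin libraries alone, so these counts are a description. All other processed pseudogenes tested, which can include ribosomal protein copies named outside the rule, showed the same order of classes. Their medians were 1.00 in 600 same-strand loci, -1.93 in 489 opposite-strand loci and -1.65 in 976 loci without a host. Of 3897 other loci in introns of same-strand genes, 2810 were called in chromatin, with a median of 3.20. The other pseudogenes and these intronic loci had passed the same filter, so their medians and calls describe the loci that passed.

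The member furthest towards chromatin was RPS12P16, a copy of the mRNA of a small-subunit protein in an intron of PARD3, which encodes a scaffold of cell polarity. Its normalised read counts were 58.2, 78.1 and 45.0 in the chromatin libraries and 1.76, 0 and 0.845 in the nucleoplasm libraries. The lowest chromatin library thus lay far above the highest nucleoplasm library. RPS12P16 had passed the filter through chromatin libraries alone, so its values describe a member admitted that way. On the log2 scale the fractions differed by 5.12 ± 0.40 (SE, limma, adjusted p = 3.72e-06). The ratio of summed reads, chromatin over nucleoplasm, was 69.6, with an exact interval at 95% of 23.4 to 341 that covers counting error only. PARD3 itself had a log2 fold change of -0.53, so copy and host lay on opposite sides of 0.

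RPS2P44 in N4BP1, a gene for a regulator of immune signalling, held 68.7, 93.7 and 60.4 counts in chromatin. In nucleoplasm it held 2.63, 1.72 and 0, so its fractions were as far apart as those of RPS12P16 (log2 fold change 5.11 ± 0.47, limma adjusted p = 9.73e-06, ratio of reads 51.4, interval 21.7 to 160). RPS3AP22, in the divergent lncRNA TMEM161B-DT, held 41.9, 50.4 and 47.2 counts in chromatin and 0, 1.72 and 1.69 in nucleoplasm (4.61 ± 0.41, adjusted p = 8.02e-06). TMEM161B-DT was itself higher in chromatin, at 3.0 on the log2 scale (adjusted p = 1.87e-08), whereas N4BP1 was at 0.52. RPS2P44 and RPS3AP22 had also passed the filter through chromatin libraries alone.

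Other same-strand members lay on the nucleoplasm side. RPL36AP43, in an intron of the peroxisome gene PEX11A, held 5.82, 6.0 and 6.59 counts in chromatin and 105, 101 and 97.2 in nucleoplasm (log2 fold change -3.84 ± 0.15, limma adjusted p = 6.36e-08). PEX11A averaged 7.36 counts in chromatin and 3.74 in nucleoplasm, below its copy's nucleoplasm level and under the filter. RPS19P7, in a lncRNA gene without a symbol that averaged 6.15 and 2.59 counts, held 88.5, 68.5 and 90.0 counts in chromatin against 1012, 992 and 983 in nucleoplasm (-3.59 ± 0.11, adjusted p = 2.24e-08). RPS15AP17 in the antisense lncRNA ADGRL3-AS1 held 80.4, 61.2 and 87.8 against 866, 848 and 848 (-3.48 ± 0.13, adjusted p = 4.24e-08), and its host had no row above 0 to compare. These 3 members were picked for their low fold change, and in each all nucleoplasm libraries exceeded all chromatin libraries. RPL36AP43 had passed the filter through nucleoplasm libraries alone.

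**Figure D2:**
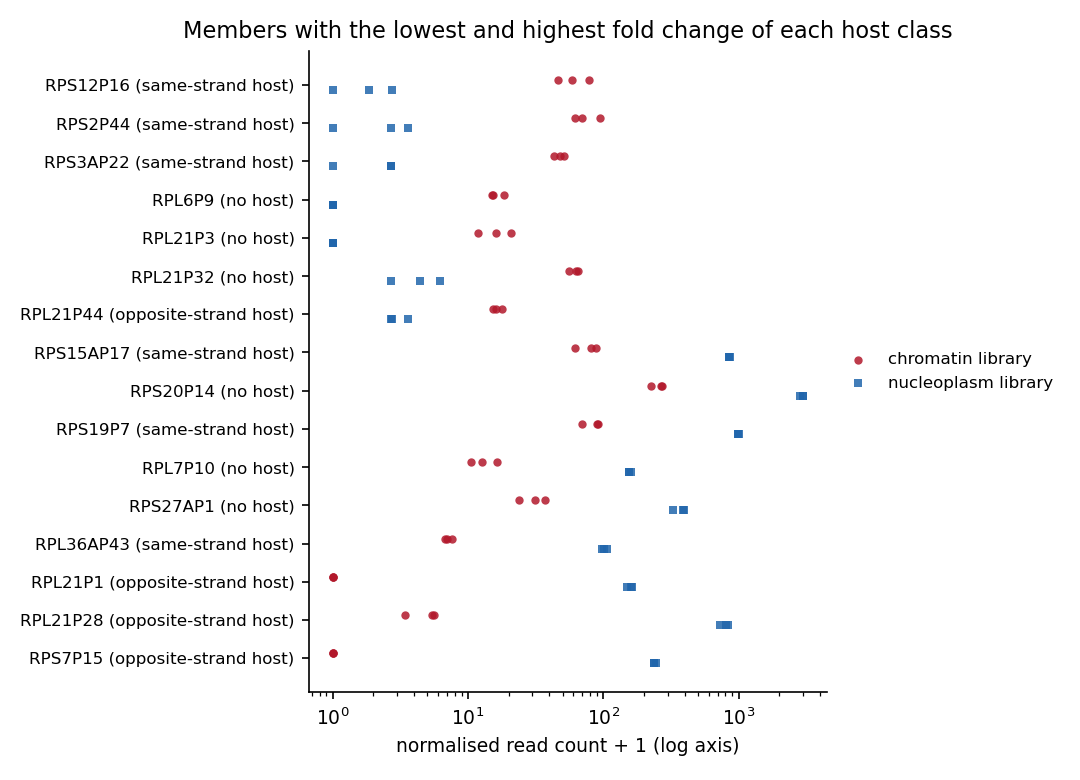
Normalised read count plus 1 (log axis) in each chromatin library (red circles) and nucleoplasm library (blue squares) for the members with the lowest and highest fold change of each host class. The 16 members shown were picked for extreme fold change, so their fractions do not overlap, as is the case in 90.5% of all genes tested. RPS7P15 and RPL21P1 are at 0 in chromatin.

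Of the members without a host, 8 were called in chromatin, the highest at a log2 fold change of 4.02. RPL6P9 held 13.98, 14.4 and 17.6 counts in chromatin and was listed at 0 in the 3 nucleoplasm libraries, at least 5.93-fold higher in chromatin against a floor of 3 reads per library. RPL21P3 held 15.1, 10.8 and 19.8 counts and was also listed at 0 in nucleoplasm (at least 5.90-fold). RPL21P32 held 54.7, 63.6 and 61.5 counts in chromatin and 5.27, 3.44 and 1.69 in nucleoplasm (log2 fold change 3.85 ± 0.31, limma adjusted p = 4.57e-06). These 3 were the hostless members furthest towards chromatin, and each had passed the filter through chromatin libraries alone.

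The lowest of the hostless members lay close together. RPS27AP1, RPL7P10 and RPS20P14 had log2 fold changes of -3.61 ± 0.17, -3.59 ± 0.18 and -3.53 ± 0.08 (SE, limma adjusted p = 1.53e-07, 2e-07 and 1.35e-08). RPS20P14 was the most abundant of them, with 267, 225 and 272 counts in chromatin and 2861, 2982 and 3000 in nucleoplasm. The interval of its ratio of reads, nucleoplasm over chromatin, was 10.7 to 12.5, much narrower than that of RPL7P10, at 8.89 to 18.7, which held about 12.2 counts in chromatin.

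A group of opposite-strand members lay lowest of all. At the authors' size factors no same-strand or hostless member had a log2 fold change under -4, and 7 of 121 opposite-strand members did, as did 0.181% of all genes tested. With equal ERCC totals, which moved all genes down, 39 same-strand, 68 opposite-strand and 91 hostless members were under -4, so that this border depends on the scaling. RPS7P15 lies opposite to STX18, a syntaxin of the endoplasmic reticulum, and was listed at 0 in the 3 chromatin libraries against 243, 238 and 235 counts in nucleoplasm. It was at least 68.9-fold lower in chromatin (limma adjusted p = 1.46e-08). STX18, on the other strand, averaged 3551 counts in chromatin and 1443 in nucleoplasm, a difference in the other direction.

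RPL21P28 lies opposite to DTL, a substrate receptor of a ubiquitin ligase, and held 4.66, 2.40 and 4.39 counts in chromatin against 828, 810 and 725 in nucleoplasm. That was a ratio of reads of 205, nucleoplasm over chromatin, with an interval of 111 to 428 (limma adjusted p = 1.76e-08). RPL21P1, opposite to the microtubule-binding gene CLIP1, was listed at 0 in chromatin and at 149, 159 and 162 in nucleoplasm, at least 45.3-fold lower in chromatin (adjusted p = 1.75e-08). The host genes DTL and CLIP1 were close to evenly spread (log2 fold change -0.23 and -0.22). RPS7P15, RPL21P28 and RPL21P1 had each passed the filter through nucleoplasm libraries alone.

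The other 4 of the group are named after their values were seen. RPS18P5, opposite to PCNP, held 50.1, 49.2 and 59.3 counts in chromatin and 3084, 6512 and 5010 in nucleoplasm (log2 fold change -6.44 ± 0.24, limma adjusted p = 4.47e-08), where its libraries spread more than those of RPS20P14. RPL5P23, RPL26P27 and RPL21P53 had log2 fold changes of -4.90, -4.89 and -4.79, and RPL26P27 had passed the filter through nucleoplasm libraries alone. These members were picked for their low values, and no tested parent of any member was under -2.97. Their parents RPS7, RPL21, RPS18 and RPL5 were at -2.37, -0.99, -2.92 and -2.34. Of these parents, RPS7, RPS18 and RPL5 were themselves called in nucleoplasm. RPL26, the parent of RPL26P27, had no tested row. The 2 chromatin libraries of long reads had values above 0 at loci of this group. They were 13.2 and 9.79 TPM (a share of all long-read transcripts, which keeps no depth) for RPS7P15, 991 and 867 for RPL21P28, 3.04 and 1.36 for RPL21P1, and 1635 and 2139 for RPS18P5. RPL21P28 and RPS18P5 match their parents at 99.4% and 98.7% of aligned bases. Whether long reads listed there came from the parents was not tested. At RPL21P28 chromatin short reads were thus near 0 in libraries of the fraction whose listed long-read level was high there, and the cause was not tested. The sources used here do not say whether long reads were assigned to strands before these values were made, so the strand of the long-read level at loci opposite to an expressed host is uncertain.

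A single opposite-strand member was called in chromatin. RPL21P44 held 15.1, 16.8 and 14.3 counts there and 1.76, 2.58 and 1.69 in nucleoplasm (log2 fold change 2.46 ± 0.27, limma adjusted p = 3.18e-05, ratio of reads 7.65, interval 3.39 to 20.2). The call was lost when the test was made against the 4-fold limit itself. RPL21P44 had passed the filter through chromatin libraries alone, so its p-value and interval describe a member admitted by the fraction in which it was higher. The hosts of opposite-strand members gave no order to the members: over 91 members with a tested host, Spearman's rho between member and host was 0.10, a description across loci that share libraries. The median of these hosts was -0.13.

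The most abundant members were nucleoplasmic in every class, apart from RPL4P4. RPL13P12, the member with the highest counts, has no host and held 1951, 1552 and 2001 counts in chromatin and 11832, 11933 and 12494 in nucleoplasm (log2 fold change -2.73 ± 0.09, limma adjusted p = 3.2e-08). RPS2P46, in a lncRNA gene that averaged 2.29 and 0.287 counts, held 2234, 1830 and 2052 in chromatin against 11581, 11126 and 11654 in nucleoplasm (-2.49 ± 0.07, adjusted p = 1.92e-08). RPL4P4, opposite to the kinase gene MAP3K13, held 2497, 2132 and 2270 against 7080, 6620 and 6515, a log2 fold change of -1.55 ± 0.07 that was under the 4-fold limit of a call.

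RPL7P9, RPL15P3, RPL10AP6, RPL7P1 and RPS3AP26 lay between -2.54 and -3.22. RPS3AP26 is intronic on the strand of its host, BAIAP2L1, and averaged 9424 counts in nucleoplasm against 1346 in chromatin. These 5 members, RPL13P12, RPS2P46 and RPL4P4 matched their parents over at least 97.9% of aligned bases. In sum, members held 0.128 to 0.149% of gene reads in the chromatin libraries and 0.654 to 0.664% in the nucleoplasm libraries, so the fractions did not overlap.

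Same-strand members were then compared by their identity to the parent. Identity was measured over the best alignment of a locus to a protein-coding transcript of its parent and could be had for 459 members (median 93.7%). Among same-strand members under 85% identity, 22 of 28 were called in chromatin and 1 in nucleoplasm, with a median log2 fold change of 3.26. From 85 to 90% identity the counts were 20 and 3 of 33 (median 2.40), and from 90 to 95% they turned to 3 and 27 of 48 (median -2.19). From 95 to 98%, 15 of 19 were called in nucleoplasm and none in chromatin (median -2.71), and from 98% up it was 15 of 16 (median -2.79). Since 41 of the 46 chromatin calls had passed through chromatin libraries alone, these counts describe the members that passed. Among same-strand members at 10 or more in every library, 1 of 12 was called in chromatin and 1 in nucleoplasm under 90% identity (median -0.70), 0 and 21 of 34 from 90 to 95% (median -2.24), and 0 and 27 of 32 from 95% up (median -2.75).

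**Figure D3:**
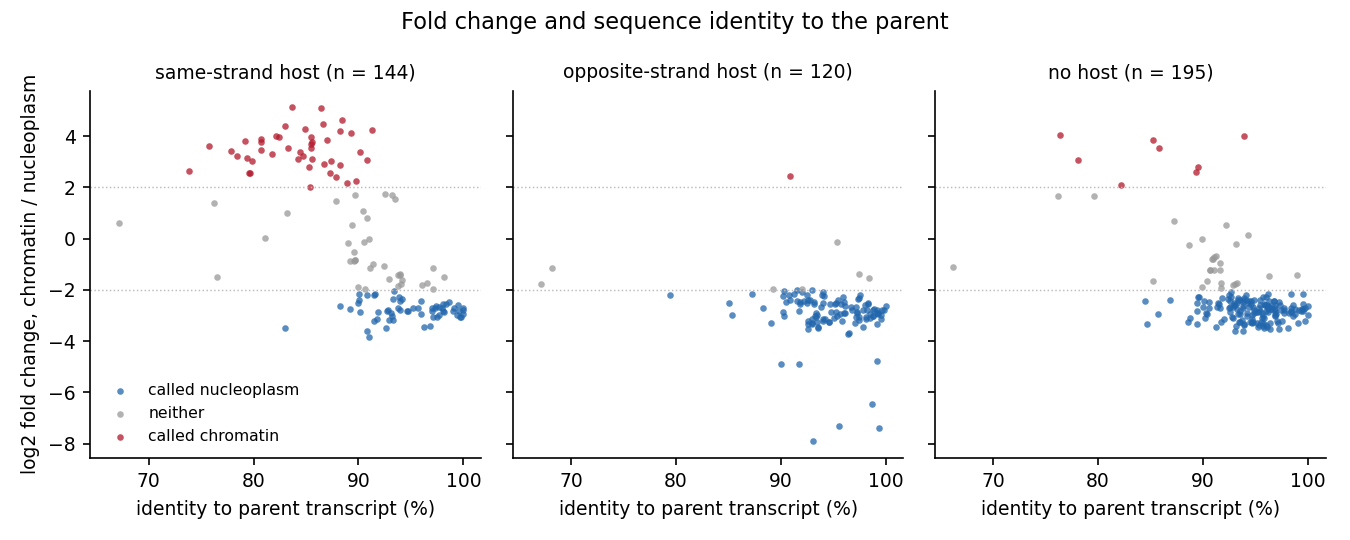
Log2 fold change against percent identity to the parent transcript for members of each host class, coloured by call, with the 4-fold limits dotted. Most same-strand members under 90% identity lie above 2 and most from 90% up lie below -2, with others between. Of the 46 same-strand members called in chromatin, 41 passed the filter through chromatin libraries alone. Opposite-strand and hostless members lie below -2 at most identities.

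Few opposite-strand and hostless members were diverged. Of 9 opposite-strand members under 90% identity, 6 were called in nucleoplasm and none in chromatin. Of 26 hostless members under 90%, 7 were called in chromatin and 11 in nucleoplasm. Spearman's rho between identity and log2 fold change was -0.73 over 144 same-strand members, -0.29 over 120 opposite-strand members and -0.39 over 195 hostless members. These are descriptions across loci that share libraries and parents, and copies of higher identity also had higher counts, with a median over members of 18.7 under 90% identity, 68.3 from 90 to 95% and 560.4 from 95% up. The filter enters them too. In same-strand, opposite-strand and hostless members, 44, 1 and 8 passed through chromatin libraries alone, and 10, 24 and 32 through nucleoplasm libraries alone.

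Shared reads were looked at next. Each locus was cut into all of its 50-base words, the length of a read, and these were looked up in the parent's transcripts. Of 52 same-strand members that shared no word with a transcript of their parent, 43 were called in chromatin and 3 in nucleoplasm (median log2 fold change 3.25). Of the 93 that shared at least 1 word, 3 were called in chromatin and 58 in nucleoplasm (median -2.56). These counts carry the same filter, and among same-strand members at 10 or more in every library only 4 shared no word, of which 0 were called in chromatin and 2 in nucleoplasm. Over all classes, 5 of 373 members that shared a word were called in chromatin. The part of reads from parent transcripts in the counts of these members was not tested.

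Of the members called in nucleoplasm, 20 held no word of their parent. An exact word does not cover reads placed with a mismatch or reads of other copies. RPS7P15 was one of 10 such members opposite to a host, and all of its words were found once in the genome. The 3 in same-strand hosts were RPS19P7, already described, RPS19P3 in SNX6 (log2 fold change -2.34) and RPL31P61 (-2.05), the last 2 named after their values were seen. RPL17P43 in SLC47A1, a transporter gene, was the only same-strand member under 85% identity called in nucleoplasm. At 83.0% identity it still shared 12.3% of its words with RPL17, and it held 53.6, 42.0 and 49.4 counts in chromatin against 551, 539 and 546 in nucleoplasm (log2 fold change -3.48 ± 0.10, limma adjusted p = 2.12e-08).

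Words that occur once in the genome made up all of the locus in 48 members, of which 37 were called in chromatin and 5 in nucleoplasm. The median share of such words was 100% in members called in chromatin and 80.7% in those called in nucleoplasm. A run of at least 10 A within 50 bases of the end of the locus, the trace of the poly(A) tail of the copied mRNA, was found in 65 of 462 members, in 59 of 333 called in nucleoplasm and 3 of 55 called in chromatin. Of these 55 members, 49 had passed the filter through chromatin libraries alone, and 2 were at 10 or more in every library. These counts and medians therefore describe the members that passed.

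Members differed from the gene around them in both directions. The difference between a locus and its same-strand host was fitted over 3852 locus and host pairs, of which 80.5% were higher in chromatin than their host by more than 2-fold at an adjusted p under 0.05 and 7.09% lower (limma). Of the 116 members with a tested host, 51 were higher in chromatin than the host and 51 lower. The 113 hosts of these members had a median log2 fold change of -0.04, and 6 of them were called in chromatin and 1 in nucleoplasm, so the direction of a difference largely restates the member's own call.

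**Figure D4:**
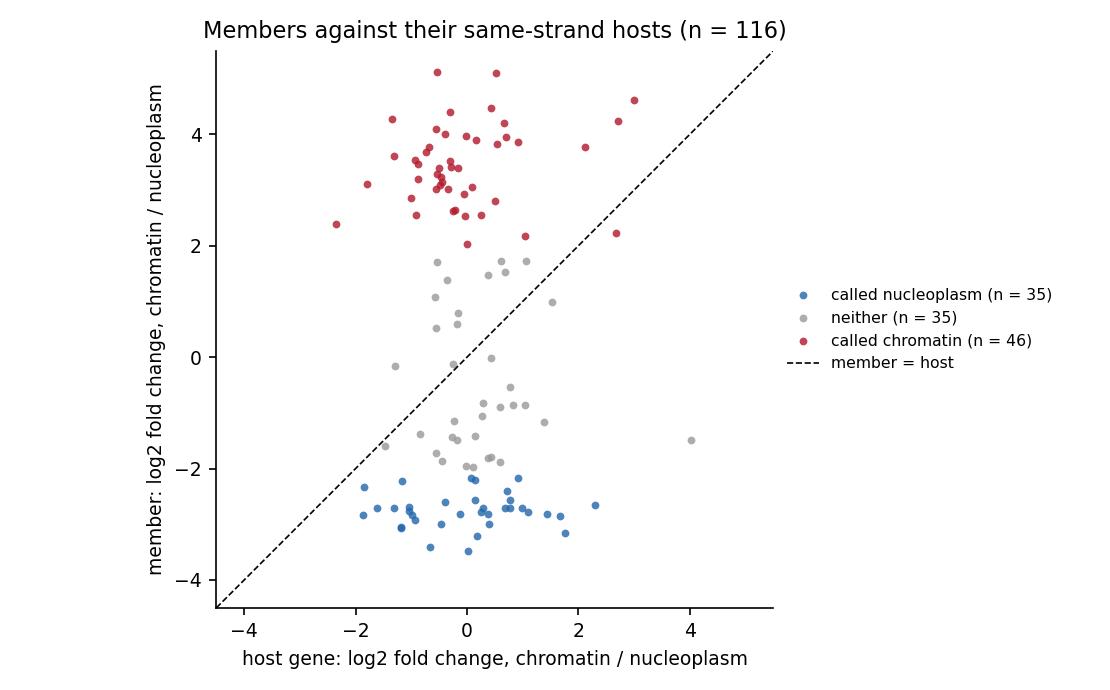
Log2 fold change of 116 same-strand members against that of their host genes, coloured by the member's call, with the line of equality dashed. Most hosts lie between -2 and 2, while 46 members lie in a band above 2, 35 in a band below -2 and 35 between them.

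RPS12P16 exceeded PARD3 by 5.66 ± 0.40 on the log2 scale (SE, limma adjusted p = 4.13e-06), RPS2P44 exceeded N4BP1 by 4.59 ± 0.47 (adjusted p = 3.68e-05), and RPS3AP22 exceeded TMEM161B-DT by 1.61 ± 0.39 (adjusted p = 0.00499). RPS3AP26 lay below BAIAP2L1 by 2.69 (log2 difference -2.69 ± 0.18, adjusted p = 3.53e-06). Host levels differed with the members' calls. The median host of members called in chromatin averaged 2661 counts in chromatin, and that of members called in nucleoplasm 491, over the 46 and 50 hosts with a row. Of the 46 members called in chromatin, 41 had passed the filter through chromatin libraries alone, and both types of host were pooled. This difference therefore describes the members that passed. Across the 116 pairs Spearman's rho between member and host was -0.03, a description over loci that share libraries.

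Ribosomal protein genes were nucleoplasmic too. Of 62 ribosomal protein genes tested, 41 were called in nucleoplasm and none in chromatin, at a median log2 fold change of -2.35. By limma at any size of change, 59 of the 62 were lower in chromatin and 1 was higher at an adjusted p under 0.05. These genes held 0.939 to 1.10% of gene reads in chromatin libraries and 3.11 to 3.19% in nucleoplasm libraries. Of the 64 parents of the members, 49 were tested, and the others had no tested row. Of these 49 parents, 33 were called in nucleoplasm and none in chromatin, at a median of -2.32. The difference between a pseudogene and its parent was fitted over 1478 pairs, of which 18.3% were higher in chromatin than the parent by more than 2-fold and 17.5% lower. Of the 311 members with a tested parent, 55 were higher, 75 lower and 181 neither.

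Of 236 members called in nucleoplasm with a tested parent, 167 were within the limit and 69 were lower than the parent, and their median difference was -0.56. RPL7P1, opposite to the receptor gene CSF1R, differed from RPL7 by -0.16 ± 0.06 on the log2 scale (SE, limma adjusted p = 0.0507), and RPL7P9 by -0.25 ± 0.06 (adjusted p = 0.0101), both inside the 2-fold limit.

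The families with the most members held both kinds. RPL21, a large-subunit protein gene, had 42 members, 35 called in nucleoplasm and 6 in chromatin. The others were RPS3A with 33 members (13 and 4), RPL7 with 29 (20 and 2), RPL23A with 27 (15 and 3), RPL7A with 23 (16 and 2) and RPL17 with 18 (13 and 3). In RPS3A, whose members lay mostly in same-strand hosts (19 of 33), 16 members were in neither fraction, and its median of -1.22 was the closest to 0 of the 6 families. In all, 23 of 64 families held calls in both fractions and 36 only in nucleoplasm.

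**Figure D5:**
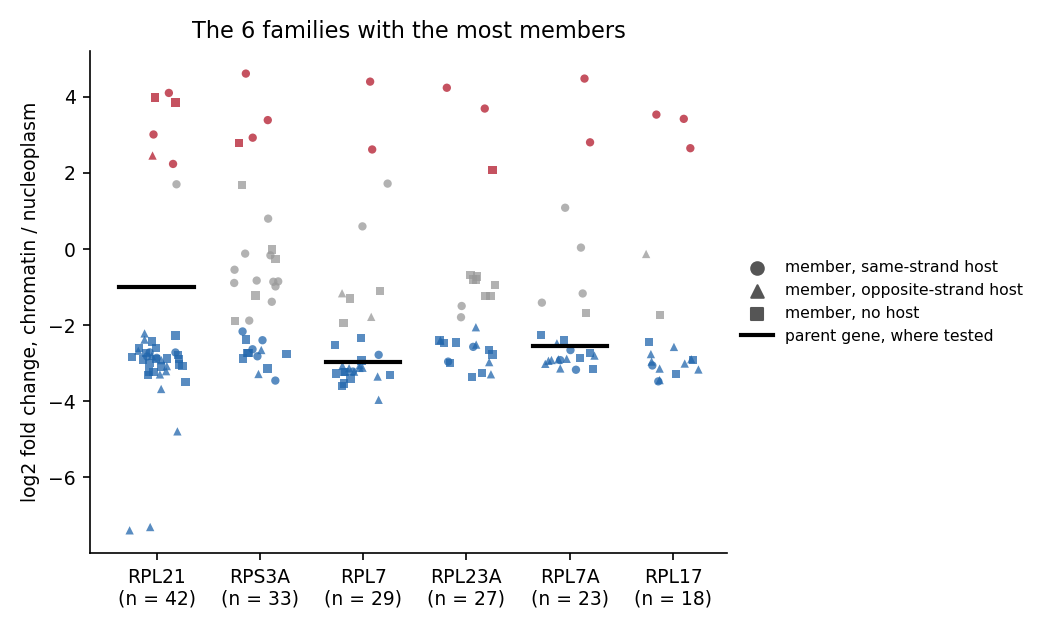
Log2 fold change of the members of the 6 largest families, with shape by host class and colour by call (red chromatin, blue nucleoplasm, grey neither), and the parent gene as a black bar where it was tested. Each family has members above 2 and below -2. The bar of RPL21 at -0.99 lies above most of its members, while those of RPL7 and RPL7A lie among them.

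The parent gene was tested in 3 of these 6 families. RPL7 held 5791, 4787 and 5855 counts in chromatin against 42296, 42383 and 43685 in nucleoplasm. Its log2 fold change was -2.97, beside a median of -3.07 for its members. RPL7A was at -2.55, beside -2.74. RPL21 held 9519, 8587 and 10768 counts in chromatin and 18669, 18893 and 19610 in nucleoplasm, and its log2 fold change of -0.99 ± 0.08 was much closer to 0 than its members' median of -2.85. Of the 75 members that were lower than their parent, 35 belonged to RPL21.

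The ends of the families show the range within 1 parent. RPL7AP22, in an intron of the plakophilin gene PKP4, held 118, 178 and 127 counts in chromatin and 4.39, 4.30 and 7.60 in nucleoplasm (log2 fold change 4.48 ± 0.25, limma adjusted p = 4.32e-07), while the lowest copy of RPL7A, RPL7AP34, was at -3.17. RPL7AP22 had passed the filter through chromatin libraries alone. RPL17P28, in the antiviral gene ZC3HAV1, held 128, 128 and 103 against 8.78, 8.61 and 10.98 (3.53 ± 0.17, adjusted p = 1.66e-07), while RPL17P43 was at -3.48. The 2 copies of RPL17 had similar identity to their parent over the best alignment, at 83.2% and 83.0%. Both lay in introns on the strand of the host. They were not alike in the words shared with RPL17. Same-strand members called in chromatin, RPL17P28 among them, shared at most 0.79% of their words with their parent. RPL17P43 shared a larger part, as given above. Whether this difference bears on their opposite calls was not tested.

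Long reads of chromatin RNA held both replicates above 0 at 338 of 462 members, at 262 of 333 called in nucleoplasm and 27 of 55 called in chromatin. The median levels were 14.3 and 15.0 TPM in the 2 libraries for members called in nucleoplasm, and 0.231 and 1.44 TPM for those called in chromatin. In chromatin short reads the median counts of these groups were 52.3 and 25.8, so the order in chromatin was the same on both platforms. Of the 55 members called in chromatin, 49 had passed the filter through chromatin short-read libraries alone. At least 100 TPM was reached by 110 members in the first library and 116 in the second. RPS12P16 had 9.54 and 6.71 TPM, and RPS3AP22 was listed at 0 in both. Over the 462 members, Spearman's rho of the long-read level was 0.63 with the short-read chromatin count per kilobase and 0.69 with the nucleoplasm count per kilobase. With identity to the parent it was 0.72 (459 members). These are descriptions across loci within the same libraries. Long reads of nucleoplasm were not measured, so this readout gives no fold change.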

How the data were processed

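Short-read values were deposited by the authors as gene counts divided by DESeq2 size factors, a normalised signal. Per the labels and the study's methods, reads were aligned with HISAT2 2.1.0 to hg38 with ERCC sequences, assembled with StringTie guided by GENCODE release 35, merged and re-estimated, with counts derived from coverage, so that a value of 0 can also be a failed estimate. Long-read transcripts were deposited by the authors as TPM after minimap2 and StringTie. Whole reads were recovered from the short-read values in 100% of values (tolerance 0.01 of a read), which set the depth, and intervals and floors cover counting error only.

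Members and lists were chosen with earlier results of these data known. Genes were named by identifier or by a Jaccard index of at least 0.5 with a GENCODE release 44 span on the same strand. Genes with at least 10 normalised counts in at least 3 libraries were tested with limma 3.58.1 (trend) in R 4.3.3 on log2(value + 1), Benjamini-Hochberg adjusted over 26489 genes, so fold changes of low genes are understated. Differences to hosts and parents were tested with limma on paired log2 values over all such pairs. Counts on recovered reads with edgeR 4.0.16 and DESeq2 1.42.0 were alternatives, as were other pseudocounts, filters, scalings, fold limits, host and name rules and leaving out each library. The counts over members at the minimum in every library were added after seeing the data. Identity came from blastn 2.17.0 on hg38 and GENCODE transcripts. Named members are, per host class, the 3 called highest and lowest and the 3 most abundant, with the 6 largest families. One member that the rule selects is not reported here by name. On simulated counts the gene fit recovered 200 of 200 changed genes of 26489 with 0 false calls, and the fit of pair differences 199 of 200 with 15 false calls. The changed genes were set to a log2 change of 3 and chosen above a minimum mean count. Most members called in chromatin lie below that minimum, so the simulation does not cover them. Samples were grouped by title, because the fraction field reads chromatin for all 8.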

Additional observations from a re-analysis of the deposited data

How the results depend on the processing

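With edgeR or DESeq2 on recovered reads, 332 and 333 of the 333 nucleoplasm calls and all 55 chromatin calls remained. A replicate block gave 55 members called in chromatin and 333 in nucleoplasm, the same members, and 103 members that differed from their host and 130 from their parent. It changed no other call count by over 1.5 times, and the labels do not say that a replicate number marks a shared culture. The deviations of same-numbered libraries correlated at 0.0784, 0.0552 and 0.061, each library best with its own number, and the numbers were not treated as pairs.

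The chromatin calls rest on low counts. At a mean of at least 50 counts, members called in chromatin numbered 5, of which 4 in same-strand hosts and 1 without a host, the same-strand median was -2.70, and 44 members differed from their host and 64 from their parent. Without a filter, 14 hostless and 4 opposite-strand members were called in chromatin, the medians were -0.12 (same-strand), -1.53 (opposite-strand) and -1.17 (no host), and 159 and 391 members differed from host and parent. A pseudocount of 5 gave 4 hostless chromatin calls and medians of -1.27 for same-strand and -2.52 for hostless members. Testing against the 4-fold limit itself left 36 members called in chromatin, 4 of them hostless.

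Equal ERCC totals gave 35 chromatin calls, 30 in same-strand hosts and 5 without a host, and medians of -2.71, -4.12 and -3.95 for same-strand, opposite-strand and hostless members. Equal library totals moved the median of all genes by 0.461 and gave -0.99, -2.34 and -2.24. The direction of the same-strand median depended on the hosts admitted, since with protein-coding hosts alone it was 0.60, with 36 nucleoplasm calls, and the opposite-strand class then held 2 chromatin calls. With members that have at least 50% of words found once, it was -0.98. Without a minimum difference 239 members differed from their parent, and with a 4-fold minimum 67.

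Leaving out 1 library at a time gave 52 to 55 chromatin and 330 to 336 nucleoplasm calls over all members, 44 to 46 and 60 to 63 in same-strand hosts, 1 and 110 to 114 in opposite-strand hosts, and 7 to 8 and 158 to 160 without a host. The medians were -1.52 to -1.40 for same-strand, -2.90 to -2.74 for opposite-strand and -2.75 to -2.60 for hostless members, and 100 to 104 members differed from their host and 125 to 133 from their parent. Depth limits the chromatin calls, which held a median mean of 14.9 counts, and reads that fit several loci limit the values of copies close to their parents.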
